A study of Mus musculus with 70 samples.

Results

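Malathion and diazinon are organophosphate insecticides, and the lungs of mice fed either of them were compared directly on 8 of the 70 arrays of the series. The malathion arrays (code MALA) came from 4 mice fed 16000 ppm and the diazinon arrays (code DIAZ) from 4 mice fed 200 ppm. The arrays of each group were found by these codes in the sample titles. All were female B6C3F1 mice, a C57BL/6 by C3H hybrid, 18 weeks old at collection, dosed in rodent chow on 7 days a week for 13 weeks. The 4 feed control mice used as background were of the same strain, sex and age, ate the chow without chemical and belonged, like the dosed mice, to set 2 of the series. Each array held total RNA of the right lung lobe of 1 mouse. The study lists both chemicals as negative for lung tumours. Whole lobes mix many cell types. The doses differ, so compound and dose cannot be told apart, and every difference given is between these dosed groups.

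Both insecticides are sulfur-containing pro-toxins. Cytochrome P450 enzymes replace the sulfur bonded to phosphorus by oxygen, and the resulting oxons phosphorylate the active serine of acetylcholinesterase, which ends signalling by acetylcholine, and of other serine hydrolases. Malathion is a phosphorodithioate that carries carboxylic ester groups, which carboxylesterases cleave. Diazinon is a phosphorothioate with a pyrimidine ring, and its oxon is hydrolysed by paraoxonase. In the lung, club cells of the airways hold much of the P450 activity. The transcription factor NRF2, released from its inhibitor KEAP1 by reactive chemicals, drives the enzymes that make and use glutathione, thioredoxin and NADPH through antioxidant response elements in their genes.

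Lung identity was plain on all 8 malathion and diazinon arrays, over which the ranges here were taken. The surfactant gene Sftpc lay between 14.36 and 14.40 on the deposited log2 scale, and the club cell gene Scgb1a1 between 13.95 and 14.29. RNA integrity numbers were given for 3 malathion animals and for 0 diazinon animals. The difference between 3' and 5' control probe sets averaged 0.239 in malathion and 0.199 in diazinon (two-sided exact permutation test over 70 splits, p = 0.486). Correlations between arrays ran from 0.984 to 0.993 within the groups and from 0.980 to 0.992 between them.

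Malathion animal 33 stood apart from the other 3 animals of its group. It had a mean correlation of 0.986 with its own group and 0.987 with the diazinon group. Malathion animals 38 and 39 had 0.989 with their own group and at most 0.985 with diazinon, and animal 36 had 0.990 and 0.989. Diazinon animals had 0.9851 to 0.9888 with their own group and 0.9847 to 0.9885 with malathion, so the correlations alone set animal 33 apart only slightly. Of the 41 genes that differed between the groups, animal 33 lay beyond all 4 diazinon values in 23, against 40 for animal 36 and 41 each for animals 38 and 39. Its median distance from the diazinon mean was 0.18 of that of the other 3 malathion animals. The labels give animal 33 the same dose and duration as the others. They give it no RNA integrity number, whereas animals 36, 38 and 39 have one and the diazinon animals have none. Results are therefore given with all 4 malathion animals first and then without animal 33. Animal 33 was singled out after its values in these same genes were seen. Differences, adjusted p-values and calls without it are therefore a description and not a test.

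In all, 41 of 14593 genes tested differed between malathion and diazinon (0.281%; limma with Benjamini-Hochberg adjustment, adjusted p under 0.05). Of these, 25 were higher in malathion (0.171%) and 16 were lower (0.11%). Differences were 0.29 to 1.87 log2 units in size, and 10 exceeded 2-fold. After a further quantile normalization 22 genes were higher and 22 lower. An unadjusted p under 0.05 was reached by 1166 genes, where 5% of the genes tested is 729.65. The called genes nearest the threshold were Pcca, 2410022M11Rik and Rab20 (each with adjusted p = 0.0461), and the nearest outside it was Trp53bp1 (adjusted p = 0.0504). The groups did not overlap in 22 of the 41 called genes, and 5.55% of all genes tested had groups without overlap. For most of the transcriptome the data bound the difference: the 95% interval lay within 2-fold either way for 97.7% of genes and within 1.5-fold for 83.1%.

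The count rested on how the spread was estimated and on single animals. The fit took its spread from all 70 arrays. With the spread from the 8 arrays alone 0 genes were called, although 1480 had an unadjusted p under 0.05, and the adjusted p-values of the 41 genes were then 0.246 to 0.416. In the 41 genes the median SD was 0.376 among the malathion animals, 0.250 without animal 33, 0.126 among the diazinon animals and 0.222 pooled over all 18 groups. Without malathion animal 33 the count was 142 (80 higher, 62 lower), and it held 40 of the 41 genes. The exception was 2410022M11Rik (adjusted p = 0.0853). Without malathion animal 38 it was 10, without malathion animal 39 it was 6, and without diazinon animal 25 it was 20.

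**Figure D1:**
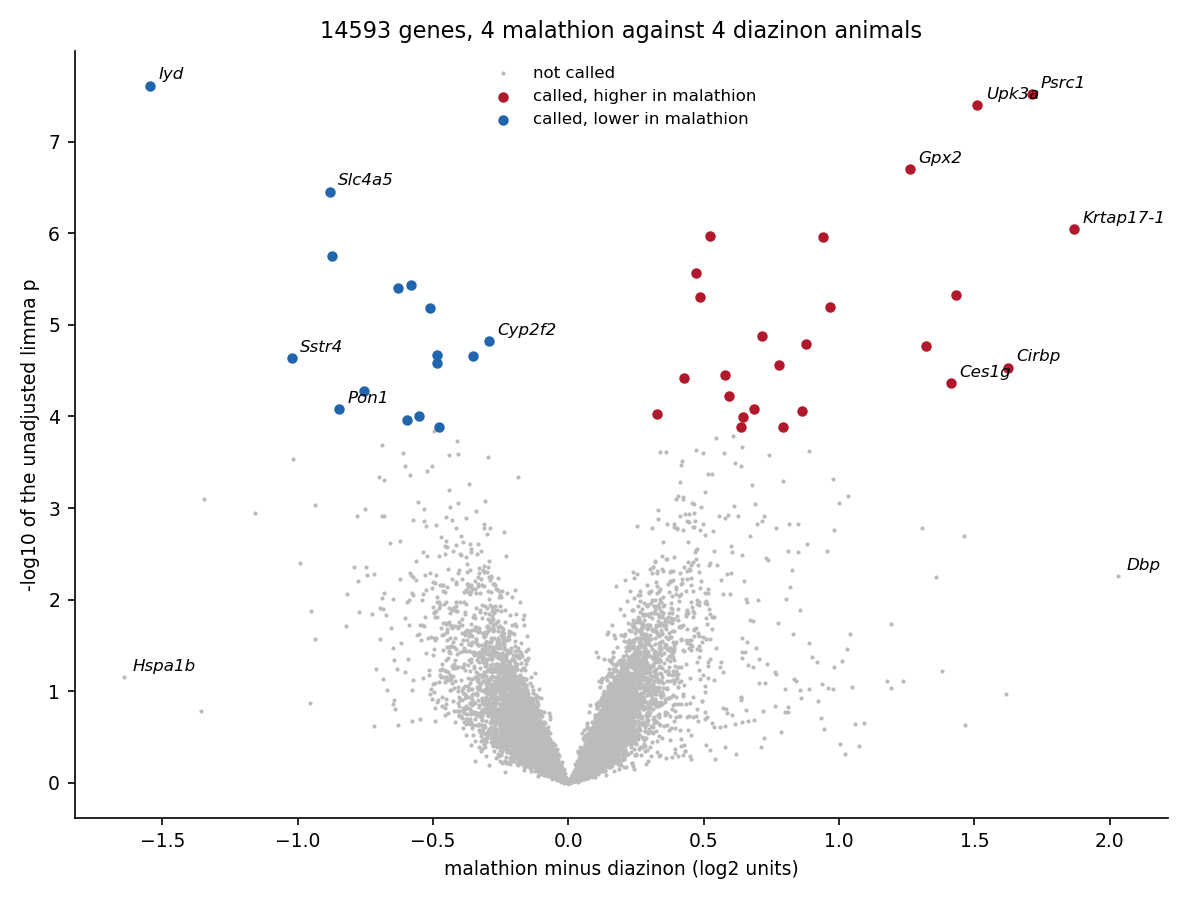
Difference between malathion and diazinon in log2 units (x axis) against the negative log10 of the unadjusted limma p (y axis) for 14593 genes, 1 point per gene. The 25 red genes passed as higher in malathion and the 16 blue genes as lower, while Dbp at 2.03 and Hspa1b at -1.64, with large spread between animals, stayed among the grey genes that did not pass.

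Each dosed group was also set beside the feed controls. Malathion differed from the controls in 320 genes (2.19% of genes tested; 151 higher, 1.03%, and 169 lower, 1.16%) and diazinon in 1 gene (0.00685%), the cytochrome P450 gene Cyp2c29; 714 genes reached an unadjusted p under 0.05 for diazinon. Both comparisons share the same 4 control mice and are therefore given side by side only. Among the 41 genes, which were chosen on these same malathion and diazinon arrays, the diazinon mean lay within 0.3 log2 units of the control mean in 39 of the 41, and beyond that for Cirbp (0.48) and Ces1g (0.32). The malathion count moved to 77 without malathion animal 39, to 142 without malathion animal 38, and to 125, 178 and 182 without control animals 42, 44 and 45. The diazinon count ran from 0 to 2 with single animals left out.

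**Figure D2:**
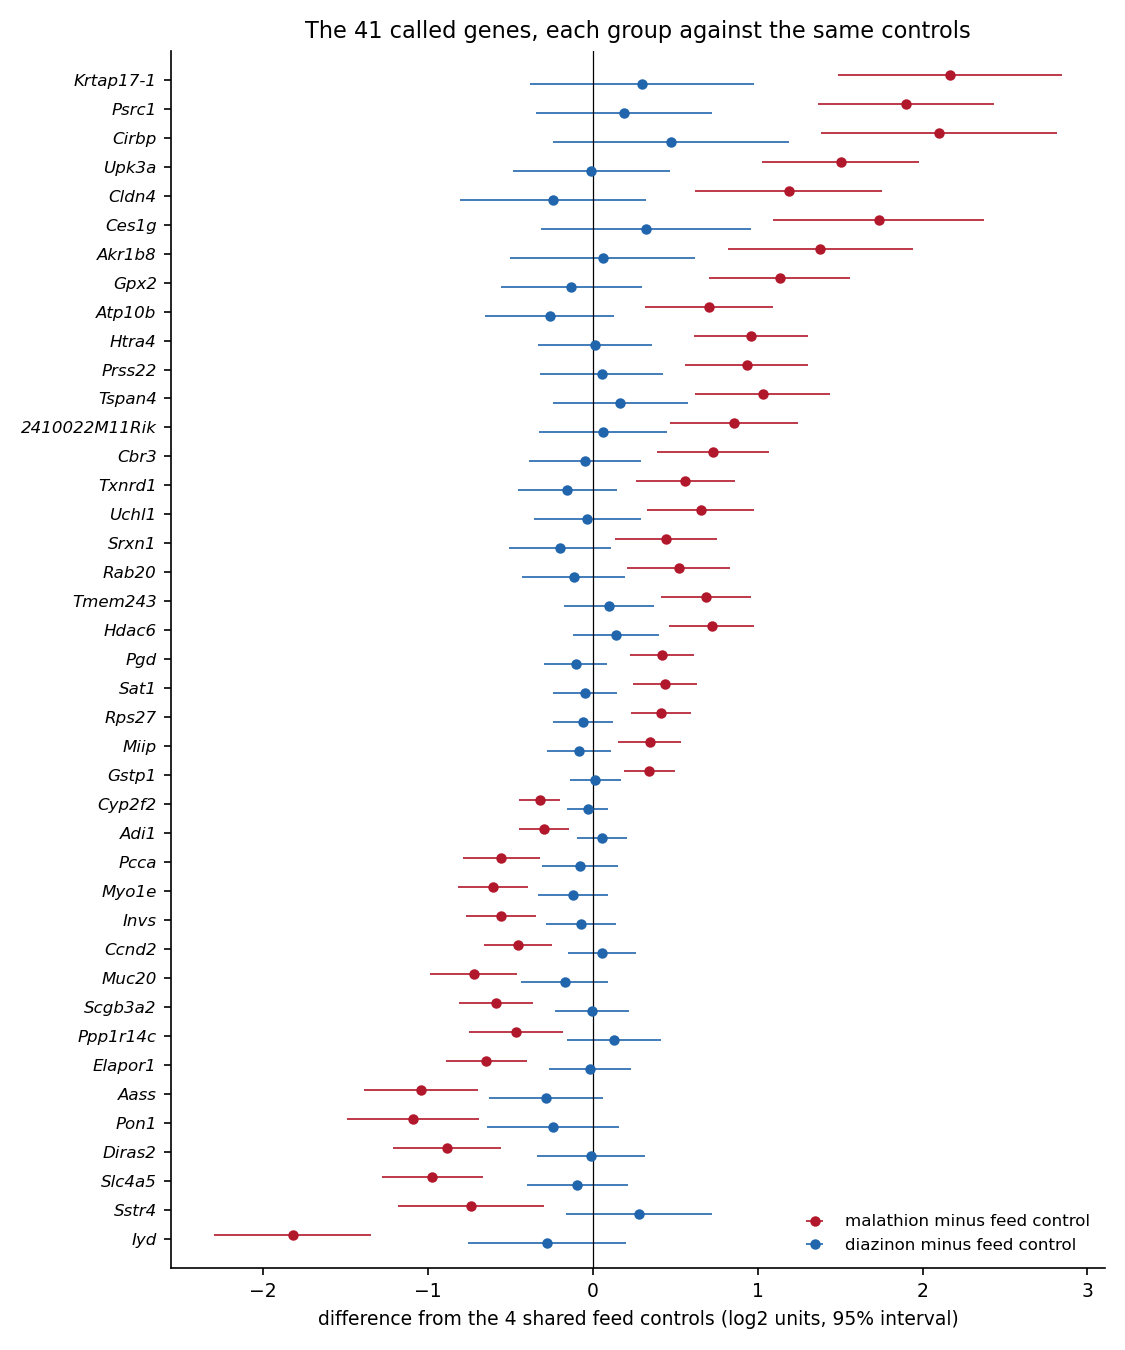
Differences of malathion (red) and of diazinon (blue) from the same 4 feed controls in log2 units with 95% intervals, for the 41 genes called between malathion and diazinon, ordered by that difference. The blue points stay within 0.3 of zero for 39 genes, and the red points run from -1.82 for Iyd to 2.17 for Krtap17-1.

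Cyp2c29 was lower than in the feed controls in both dosed groups, and the feed controls had the highest mean of it among the 12 groups of set 2. Cyp2c29, a P450 abundant in liver and also found in lung, stood at 8.17, 9.24, 7.38 and 7.73 in the control animals. It stood at 8.15, 4.04, 3.83 and 4.57 in diazinon animals 21, 24, 25 and 28. In malathion animals 33, 36, 38 and 39 it stood at 3.85, 4.73, 6.71 and 6.74. Diazinon animal 21 therefore lay at the control level while the other 3 did not, and all 4 malathion animals lay below all controls. The difference from control was -2.98 for diazinon (adjusted p = 0.0323) and -2.62 for malathion (adjusted p = 0.0059, both limma). The diazinon call was lost without diazinon animal 24, 25 or 28, without control animal 42, 43 or 45, and with the 12 arrays alone. The feed control mean was 8.13, against 4.26 in the water controls, 4.40 in the corn oil controls and 7.29 in the group with code NAAC, and the other 6 groups besides malathion and diazinon had 3.89 to 5.65. Diazinon (5.15) and malathion (5.51) thus lay nearer to the gavage controls than to their own feed controls. Malathion minus diazinon was 0.36 (95% interval -0.77 to 1.49, adjusted p = 0.955). Diazinon animal 21 also had the highest mean of 13 hepatocyte genes of the 12 arrays (9.23, against 5.23 to 6.48 in the other diazinon animals), and the part of hepatocyte transcripts in these values was not tested.

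Of the 44 gene lists, that of NRF2 targets and glutathione enzymes had the most called members. Of its 33 tested members 7 were higher in malathion and 0 lower, where 0.171% of all genes tested were called higher and 0.11% lower, with a median difference of 0.16 against 0.01 over all genes tested. They were Akr1b8, Gpx2, Cbr3, Txnrd1, Srxn1, Pgd and Gstp1. Against the feed controls 8 members were higher and 1 lower in malathion, beside 1.03% and 1.16% of all genes. Between malathion and diazinon the count of higher members was 11 without malathion animal 33, the additional ones being Nqo1, Gclc, Gsr and Ephx1. Without malathion animal 36 it was 4, without malathion animal 38 or 39 it was 1 each, and without diazinon animal 25 or 28 it was 3 each. It was 0 with the 8 arrays alone and 0 with the 12 arrays that include the feed controls, 4 with the amount of RNA solution as a block, 1 among the animals with 15 ul, and 12 with array weights.

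Among the peroxide-removing enzymes, Gpx2, an epithelial glutathione peroxidase, showed the clearest difference. It stood at 9.47, 10.66, 11.01 and 11.15 in malathion animals 33, 36, 38 and 39, and at 9.62, 9.14, 9.35 and 9.12 in diazinon animals 21, 24, 25 and 28. Animals 36, 38 and 39 lay above every diazinon value, and animal 33 lay inside the diazinon range. The difference was 1.26 ± 0.21 (SE), or 2.40-fold (limma, adjusted p = 0.000735), and 1.63 without animal 33 (adjusted p = 4.91e-08). Srxn1 encodes sulfiredoxin, which restores overoxidised peroxiredoxins. Its values were 7.52, 8.15, 8.35 and 8.65 in malathion and 7.34 to 7.61 in diazinon, with animal 33 again inside the diazinon range. The difference was 0.65 ± 0.15 (adjusted p = 0.0397), or 0.86 without animal 33, and the call was kept in 7 of 20 other settings. Against the feed controls Srxn1 did not pass in malathion (0.45, limma, adjusted p = 0.107), and diazinon was at -0.20. The stress-induced heme oxygenase gene Hmox1, often used as an NRF2 marker, did not pass, at -0.17 (95% interval -0.64 to 0.31).

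The reductase genes Akr1b8 and Cbr3 passed, and Nqo1 did not. Akr1b8, an aldo-keto reductase, stood at 9.02, 10.33, 11.02 and 10.87 in malathion animals 33, 36, 38 and 39, and at 8.93 to 9.09 in the 4 diazinon animals. The other 3 animals lay more than 1 log2 unit above the diazinon group and animal 33 lay within it. The difference was 1.32 ± 0.28, or 2.50-fold (adjusted p = 0.0124), and 1.75 without animal 33. Cbr3, a carbonyl reductase, had 9.56, 10.42, 10.64 and 10.56 in malathion and 9.44 to 9.62 in diazinon. Its difference was 0.78 ± 0.17 (adjusted p = 0.016), or 1.02 without animal 33. Nqo1, the quinone reductase, missed the threshold with all animals (0.98, 95% interval 0.45 to 1.51, adjusted p = 0.0977) and passed without animal 33 (1.31, adjusted p = 0.00242).

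Txnrd1, the cytosolic thioredoxin reductase, and Pgd, an NADPH-producing enzyme of the pentose phosphate pathway, supply reducing power. Txnrd1 stood at 9.49, 10.34, 10.80 and 10.77 in malathion animals 33, 36, 38 and 39, and at 9.67, 9.71, 9.63 and 9.54 in diazinon animals 21, 24, 25 and 28. Animal 33 was the lowest of all 8 animals, and the other 3 malathion animals were the highest. The difference was 0.71 ± 0.15 (adjusted p = 0.0114), or 1.00 without animal 33 (adjusted p = 3.26e-07). Pgd stood at 9.99, 10.49, 10.67 and 10.63 against 9.86 to 9.96 in diazinon, so the groups did not overlap even with animal 33 included. Its difference was 0.52 ± 0.10 (adjusted p = 0.00202).

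Among genes of glutathione synthesis and transfer Gstp1 passed. Gstp1, a pi-class glutathione transferase with near-identical copies from which its probe set may not be separable, was higher by 0.33 ± 0.08 (adjusted p = 0.0393). It had 12.18, 12.52, 12.70 and 12.56 in malathion and 12.00 to 12.29 in diazinon, so animal 33 again fell inside the diazinon range. The Gstp1 call was kept in 9 of 20 other settings. Gclc, the catalytic subunit of the enzyme that starts glutathione synthesis, did not pass (0.52, 95% interval 0.06 to 0.98, adjusted p = 0.519). In Gclc diazinon lay 0.49 below the controls and malathion 0.03 above them. The modifier subunit Gclm was at 0.34 (adjusted p = 0.392). Mean values over the 33 genes were 9.60, 9.87, 10.06 and 10.01 in malathion animals 33, 36, 38 and 39, and 9.54 to 9.72 in diazinon. Control animal 43, at 9.85, lay above every diazinon animal and above malathion animal 33.

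**Figure D3:**
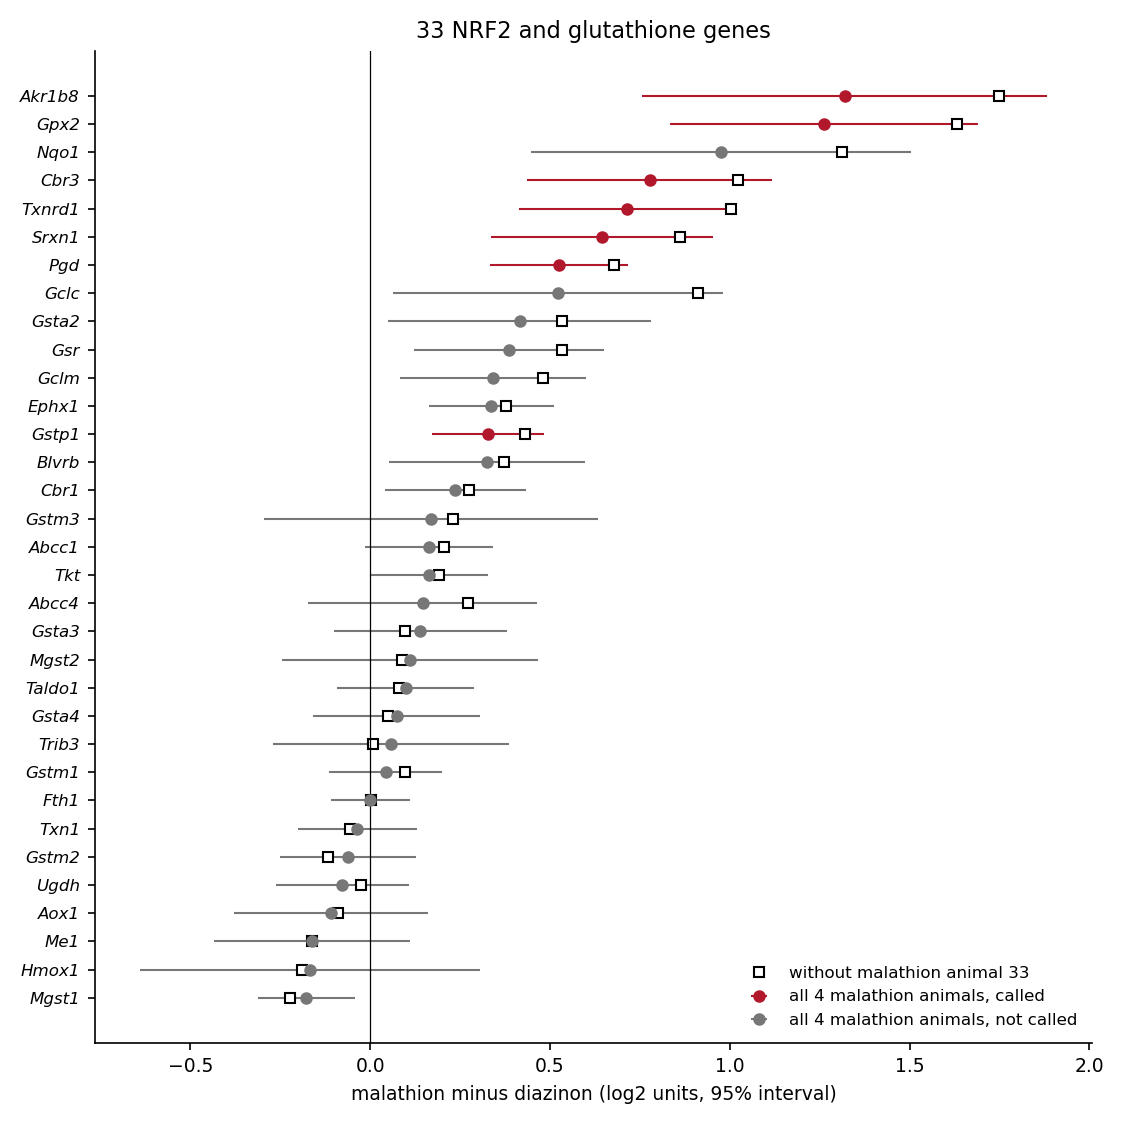
Malathion minus diazinon in log2 units for the 33 tested NRF2 and glutathione genes: circles with 95% intervals use all 4 malathion animals (red, called), and open squares leave out malathion animal 33. The 7 red genes lie between 0.33 and 1.32, and their squares lie to the right of their circles.

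Antioxidant response elements share the core TGACNNNGC, and the form TGAGNNNGC, chosen after seeing the data, was searched as well. Both were searched on both strands in the 250 bases before each gene start in the RefSeq promoter table (GRCm38.p6). TGACNNNGC was present in 10.2% of 32851 such windows and TGAGNNNGC in 14.4%, with both in 1.53% and either in 23.0%. All 7 called NRF2 and glutathione genes had entries, 10 windows in all. TGACNNNGC matched in 1 window, at a start of Txnrd1, and TGAGNNNGC in 2 windows, those of Srxn1 and Gstp1. Of the 7 genes 3 thus held either form, and over all genes 25.7% did. These 3 windows and that of Gpx2, the member with the smallest p, which held neither form, are shown 5′ to 3′ on the gene strand, with capitals marking the matches. A match describes letters and not a bound site, and sequence outside these windows was not searched.

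Txnrd1, chr10:82858956-82859205, plus strand: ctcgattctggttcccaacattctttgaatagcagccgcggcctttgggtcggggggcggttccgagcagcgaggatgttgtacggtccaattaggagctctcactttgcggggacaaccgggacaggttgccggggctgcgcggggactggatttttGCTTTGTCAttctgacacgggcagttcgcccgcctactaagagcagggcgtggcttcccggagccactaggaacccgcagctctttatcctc

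Srxn1, chr2:152105274-152105523, plus strand: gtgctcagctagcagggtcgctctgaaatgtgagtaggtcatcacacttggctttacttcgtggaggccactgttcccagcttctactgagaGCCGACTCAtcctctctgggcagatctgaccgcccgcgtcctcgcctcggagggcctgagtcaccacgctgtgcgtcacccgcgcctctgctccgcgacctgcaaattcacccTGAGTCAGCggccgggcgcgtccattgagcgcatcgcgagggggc

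Gstp1, chr19:4037913-4038162, minus strand: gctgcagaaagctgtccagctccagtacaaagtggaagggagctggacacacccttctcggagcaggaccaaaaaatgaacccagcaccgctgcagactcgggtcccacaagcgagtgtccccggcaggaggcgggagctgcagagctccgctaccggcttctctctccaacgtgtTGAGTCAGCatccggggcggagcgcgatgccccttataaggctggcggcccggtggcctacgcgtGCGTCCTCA

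Gpx2, chr12:76795555-76795804, minus strand: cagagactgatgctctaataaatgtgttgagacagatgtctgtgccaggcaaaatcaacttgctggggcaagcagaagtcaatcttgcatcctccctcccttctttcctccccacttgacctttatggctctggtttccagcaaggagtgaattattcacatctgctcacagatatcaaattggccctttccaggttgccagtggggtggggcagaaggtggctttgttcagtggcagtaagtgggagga

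Single genes of organophosphate handling were called. Of 43 tested serine esterases and hydrolases that organophosphates can phosphorylate 1 was higher and 0 lower, with a median difference of 0.02. Of 43 tested genes of organophosphate metabolism 1 was higher (Gstp1) and 2 were lower (Pon1 and Cyp2f2), with a median of 0.00. Over all genes tested 0.171% were called higher and 0.11% lower, and the median difference was 0.01. Ache, which encodes acetylcholinesterase, lay under the intensity filter and was not tested.

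The called esterase was Ces1g, a carboxylesterase. It stood at 6.26, 7.48, 7.69 and 8.10 in malathion animals 33, 36, 38 and 39. In diazinon animals 21, 24, 25 and 28 it stood at 6.52, 5.83, 5.40 and 6.14, and in the controls at 5.53 to 5.86. Animal 33 lay under diazinon animal 21 but above every control, and the other 3 malathion animals lay above all. The difference was 1.41 ± 0.32, or 2.66-fold (adjusted p = 0.0216), and 1.79 without animal 33 (adjusted p = 0.000411). The Ces1g call was kept in 10 of 20 other settings. The 13 tested hepatocyte genes averaged 5.75, 7.20, 7.85 and 7.95 in the same malathion animals, 9.23, 5.37, 5.23 and 6.48 in the same diazinon animals and 6.34 to 8.14 in the controls. Within each of the dosed groups the animals had the same order by Ces1g as by this mean. The part of hepatocyte transcripts in the Ces1g values was not tested.

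No other tested carboxylesterase passed. Ces1d was at 0.10 (95% interval -0.11 to 0.31), an interval that leaves out a change of 1.5-fold. Ces1f was at -0.65 (95% interval -1.14 to -0.16, adjusted p = 0.382), and Ces1h at 0.29 (adjusted p = 0.405). Bche, butyrylcholinesterase, was at -0.05 (95% interval -0.43 to 0.33), and Pnpla6, the neuropathy target esterase that some organophosphates inhibit, at 0.02 (95% interval -0.17 to 0.22). The lipase gene Pnpla2 was at 0.48 (95% interval 0.16 to 0.80, adjusted p = 0.293).

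Pon1, the paraoxonase that hydrolyses oxons, was lower in malathion. It stood at 11.00, 10.28, 10.06 and 9.93 in malathion animals 33, 36, 38 and 39, and at 11.24, 11.03, 11.24 and 11.15 in diazinon animals 21, 24, 25 and 28. All 4 malathion animals lay below all 4 diazinon animals, and animal 33 was the nearest to them. The difference was -0.85 ± 0.20, or 1.80-fold (adjusted p = 0.0367), and -1.08 without animal 33 (adjusted p = 0.000902). The Pon1 call was kept in 8 of 20 other settings. Against the controls Pon1 fell by 1.09 in malathion (adjusted p = 0.000844), and in diazinon the difference was -0.24 (adjusted p = 0.884). The related genes Pon2 (-0.05) and Pon3 (-0.03) did not pass.

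Among phase I enzymes Cyp2f2, the abundant P450 of club cells, was lower in malathion. It had 13.88, 13.55, 13.57 and 13.39 in malathion and 13.85 to 13.94 in diazinon, with animal 33 inside the diazinon range. The difference was -0.29 ± 0.06 (adjusted p = 0.0123), or -0.39 without animal 33. The SD was 0.205 among the malathion animals and 0.0437 among the diazinon animals, and the call was kept in 12 of 20 other settings. In bulk tissue fewer cells of a type and less RNA per cell cannot be told apart. The lung P450 gene Cyp2b10 was at 0.20 (95% interval -0.02 to 0.42) and Cyp4b1 at -0.01 (95% interval -0.14 to 0.13), neither of which passed. Gsto1, an omega-class glutathione transferase, was at 0.54 with all animals (adjusted p = 0.244) and at 0.72 without animal 33 (adjusted p = 0.0256).

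Club cell products gave a second called gene in the same direction. Scgb3a2, a secretoglobin of club cells, stood at 13.55, 13.01, 13.13 and 12.36 in malathion animals 33, 36, 38 and 39 and at 13.50 to 13.67 in diazinon. Animal 39 was the lowest, and animal 33 lay inside the diazinon range. The difference was -0.58 ± 0.11 (adjusted p = 0.00481), or -0.76 without animal 33. Of 20 tested club and goblet markers 0 were higher and 2 lower (Scgb3a2 and Cyp2f2), with a median of -0.05. Of all genes tested 0.171% were called higher and 0.11% lower. Without animal 33 Scgb1a1, the defining club cell secretoglobin, and Hp were lower as well. The mean over the 20 markers ran from 9.08 to 9.82 in malathion, from 8.40 to 9.96 in diazinon and from 8.48 to 10.28 in the controls, so the 3 groups overlapped in this mean.

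Neural and cholinergic genes, which bear on the target of these insecticides, gave 1 called member of 15 tested, beside 0.281% of all genes tested. The list held 34 genes, of which 28 were measured. Chat, Slc18a3 and Slc5a7, of acetylcholine synthesis and transport, and the receptor gene Chrm3 were among those under the intensity filter and were not tested. Uchl1, a ubiquitin hydrolase of neurons and neuroendocrine cells, had 5.58, 5.82, 5.76 and 6.42 in malathion and 5.01 to 5.45 in diazinon. No values overlapped, and animal 39 was the highest. The difference was 0.69 ± 0.16 (adjusted p = 0.0367), and the call was kept in 8 of the 19 other settings that tested Uchl1. Tested acetylcholine receptor subunits ran from -0.06 for Chrna7 to 0.21 for Chrna1, and none passed. The myelin gene Mbp (0.24, adjusted p = 0.378), the glial gene S100b (0.39, adjusted p = 0.566) and Sncg (0.29, adjusted p = 0.693) did not pass either. None of 6 tested neuroendocrine markers was called.

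**Figure D4:**
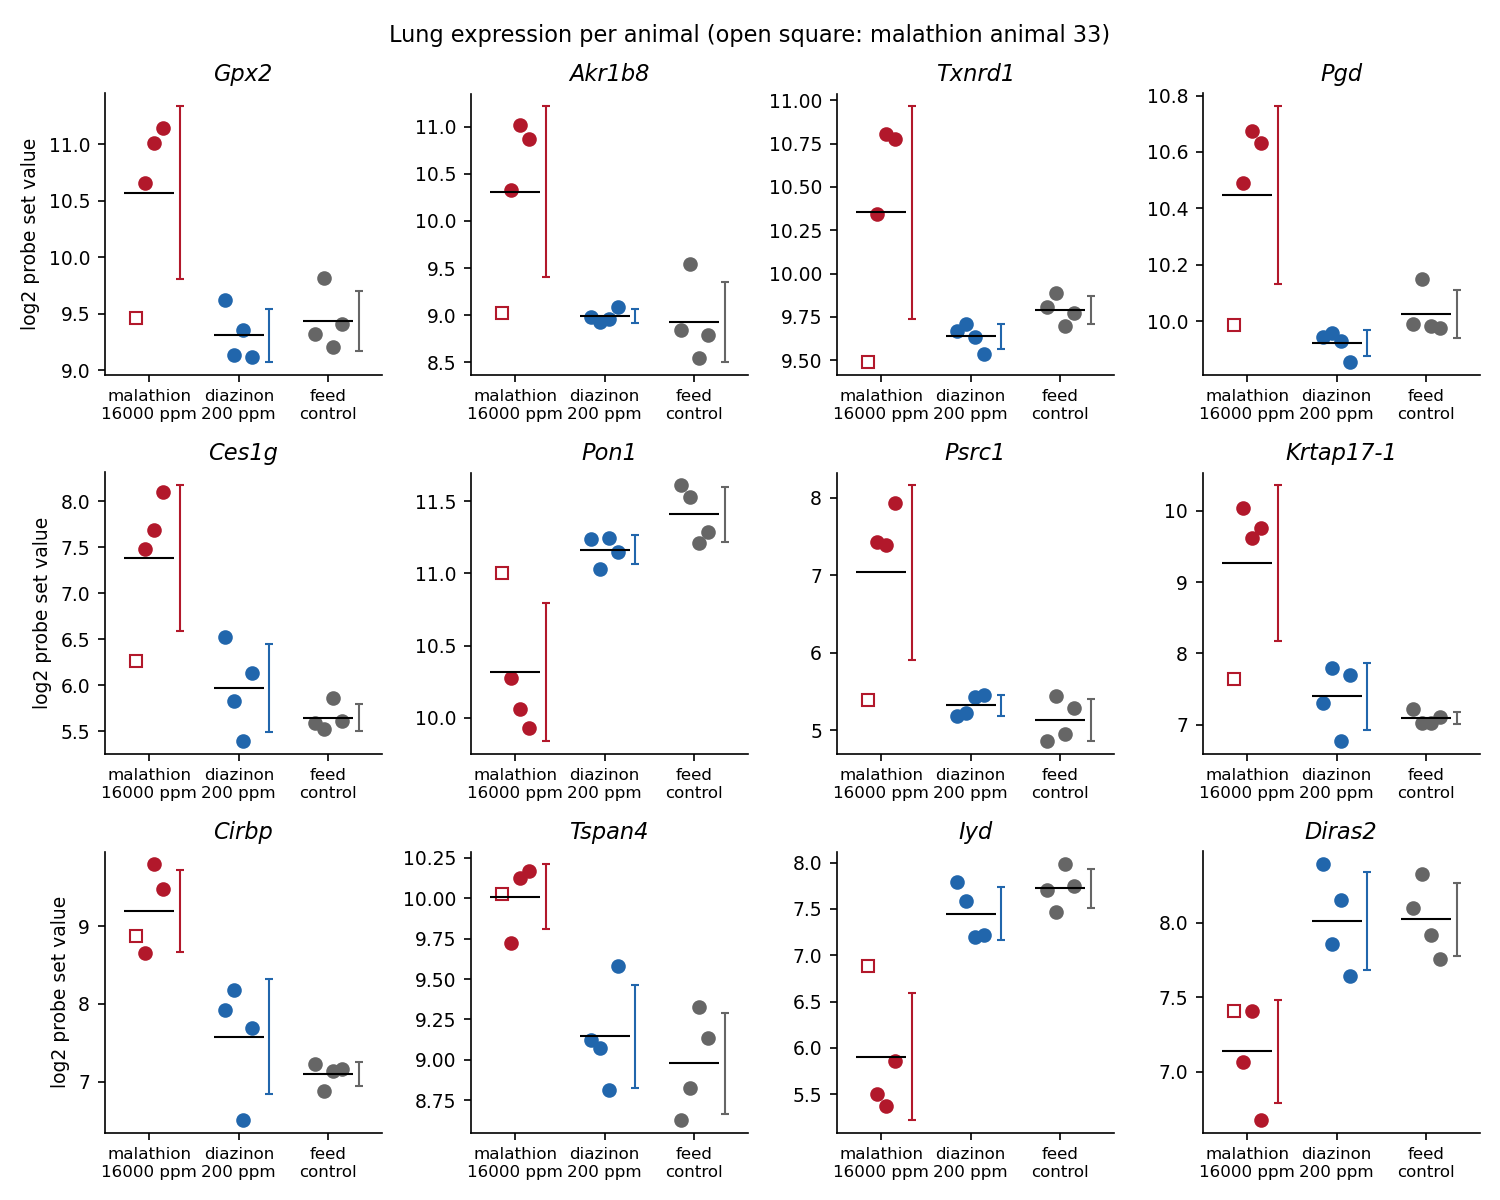
Deposited log2 probe set values per animal for 12 of the named genes in malathion, diazinon and feed control mice (4 each), with group means (black lines) and SDs (bars at the side of each group). The open square, malathion animal 33, sits at the diazinon level for Gpx2, Akr1b8, Txnrd1, Psrc1 and Krtap17-1 and with the other malathion animals for Cirbp, Tspan4 and Diras2.

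Not all genes placed animal 33 with diazinon. Cirbp, a cold-inducible RNA-binding protein whose transcript also follows the daily cycle of body temperature, stood at 8.87, 8.66, 9.80 and 9.48 in malathion animals 33, 36, 38 and 39. It stood at 7.92, 8.18, 6.51 and 7.69 in diazinon animals 21, 24, 25 and 28 and at 6.88 to 7.22 in the controls. No malathion value overlapped either group. The difference was 1.62 ± 0.36, or 3.08-fold (adjusted p = 0.0164). Tspan4, a tetraspanin, had 10.03, 9.72, 10.12 and 10.17 in malathion and 8.81 to 9.58 in diazinon (0.86 ± 0.20, adjusted p = 0.0378). Hdac6 (0.58), the cytoplasmic deacetylase of tubulin, Sat1 (0.49), which acetylates polyamines for breakdown, Rab20 (0.64), Tmem243 (0.59) and Miip (0.43) were also higher without overlap. In 32 of the 41 genes, Hdac6 among them (0.35), animal 33 lay at under 0.5 times the shift of the other 3 malathion animals. It lay at 1.26 times that shift for Miip, 1.03 times for Tspan4, 0.83 times for Sat1 and 0.75 times for Cirbp. For Gpx2 the same ratio was 0.10, and for Akr1b8 0.02.

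Most heat shock chaperones lay below 0 and the clock genes in phase with Dbp above 0, although none of them passed. Of 20 heat shock chaperones 19 were below 0, with a median of -0.41, and of 15 clock genes in phase with Dbp all 15 were above 0, with a median of 0.47. Hsph1, a co-chaperone of Hsp70, stood at 8.42, 9.41, 8.64 and 8.38 in malathion, 10.39, 9.91, 10.79 and 9.14 in diazinon and 10.78 to 11.20 in the controls. Its difference was -1.34 ± 0.38 (adjusted p = 0.136). Dbp, a clock output gene, stood at 10.74, 9.21, 10.21 and 10.26 in malathion and 6.71, 8.28, 7.74 and 9.57 in diazinon (2.03, 95% interval 0.62 to 3.44, adjusted p = 0.314), so diazinon animal 28 lay inside the malathion range. Mean chaperone values were 9.29 to 9.82 in malathion, 9.63 to 10.40 in diazinon and 10.18 to 10.65 in the controls. Against the controls 10 of the 20 chaperones were called lower in malathion, where 1.16% of all genes were. The part of clock and chaperone variation in Cirbp was not tested.

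Krtap17-1 and Psrc1 had the largest differences among the genes called higher. Krtap17-1, a keratin-associated protein gene, stood at 7.64, 10.03, 9.62 and 9.76 in malathion animals 33, 36, 38 and 39 and at 6.77 to 7.80 in diazinon. The difference was 1.87 ± 0.34, or 3.65-fold (adjusted p = 0.00202). Psrc1, a microtubule-associated protein of the mitotic spindle, stood at 5.39, 7.42, 7.39 and 7.93 against 5.19 to 5.45 (1.71 ± 0.27, adjusted p = 0.000193). Animal 33 lay inside the diazinon range for both genes, and without it the differences were 2.41 and 2.26. A second Psrc1 probe set of similar intensity gave 0.60, and the mean over the Psrc1 probe sets gave 0.83, which passed. Of the 25 tested p53 targets and 32 proliferation genes 0 were called in either direction. Of the p53 targets 23 lay above 0 (median 0.16, against 0.01 over all genes tested), and 25 of the proliferation genes lay below 0 (median -0.12). Mean values over the p53 targets were 7.89 to 8.16 in malathion and 7.85 to 7.92 in diazinon.

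Upk3a, a uroplakin of epithelial surface membranes, stood at 5.32, 7.26, 7.08 and 7.36 in malathion and at 4.98 to 5.36 in diazinon (1.51 ± 0.24, adjusted p = 0.000193). Cldn4, a tight junction protein, stood at 6.20, 7.64, 8.32 and 8.65 against 6.11 to 6.50 (1.43 ± 0.28, adjusted p = 0.00517). For both genes animal 33 was at the diazinon level and the others at least 1 log2 unit above it, and without it the differences were 1.99 and 1.93. The serine protease genes Htra4 (0.94) and Prss22 (0.88) and the flippase gene Atp10b (0.97) were higher as well. Rps27 (0.47), a ribosomal protein gene with processed copies elsewhere in the genome, and 2410022M11Rik (0.79) complete the genes higher in malathion.

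**Figure D5:**
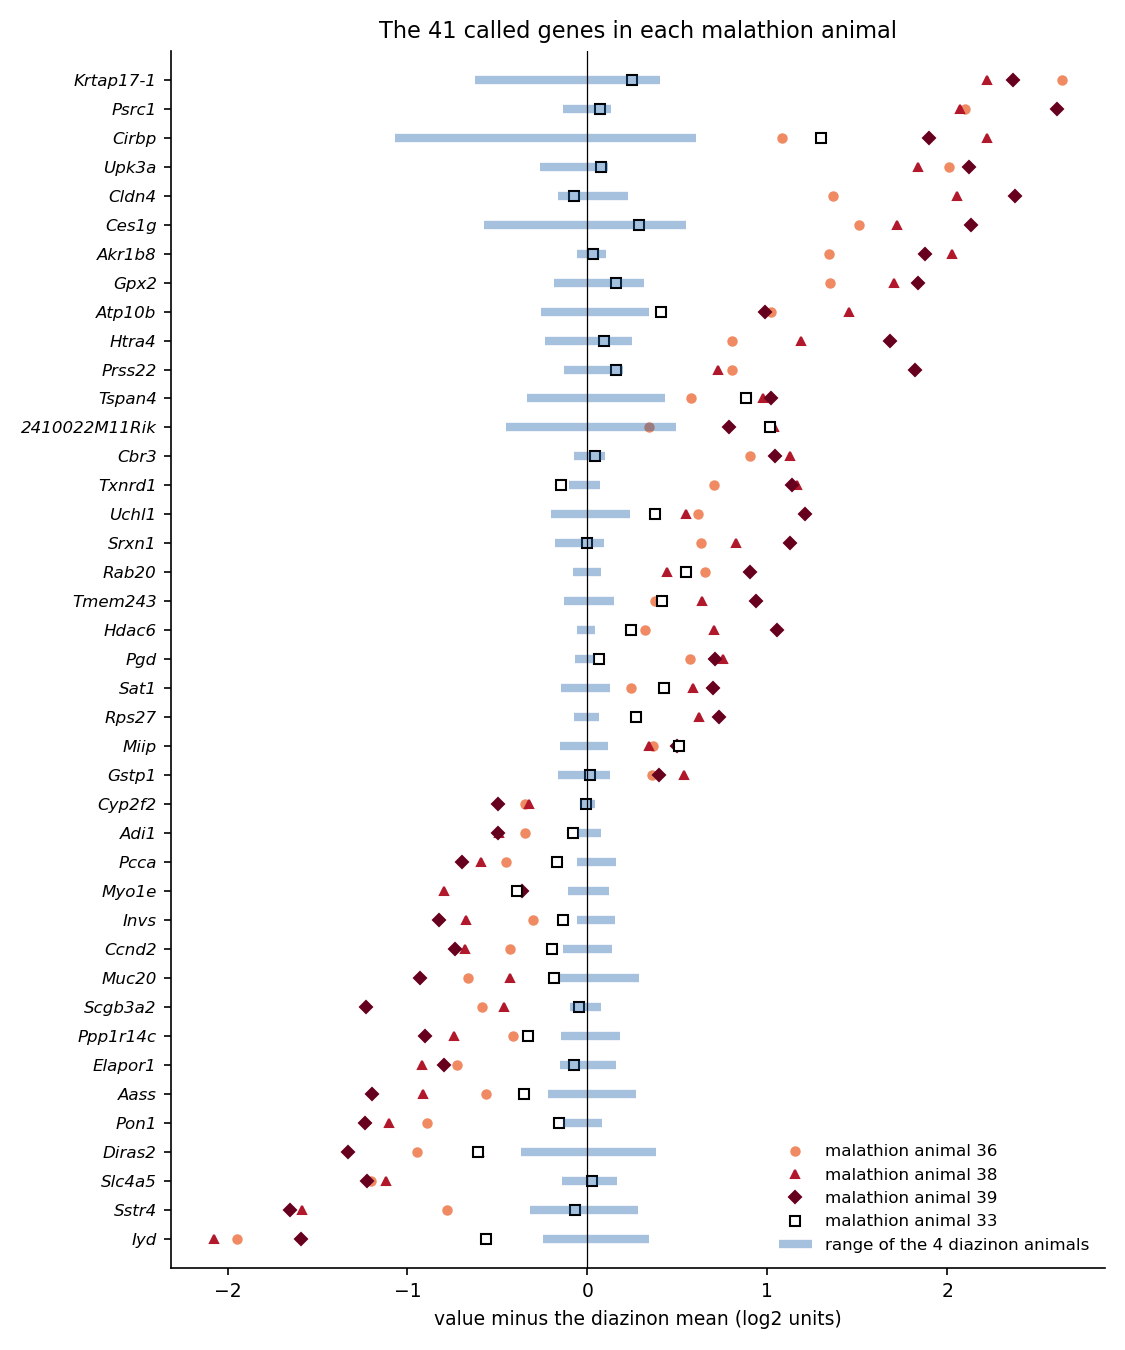
Value of each malathion animal minus the diazinon mean in log2 units for the 41 called genes, with the range of the 4 diazinon animals as a blue bar. The open squares of animal 33 fall inside the bar or on its near side for 18 genes and beyond it for 23, while animals 38 and 39 lie beyond it for all 41.

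Among genes lower in malathion Iyd, an iodotyrosine deiodinase, had the largest difference. It stood at 6.88, 5.50, 5.37 and 5.86 in malathion animals 33, 36, 38 and 39 and at 7.79, 7.58, 7.20 and 7.22 in diazinon animals 21, 24, 25 and 28. No values overlapped, although animal 33 was nearest to diazinon. The difference was -1.54 ± 0.24, or 2.92-fold (adjusted p = 0.000193), and -1.87 without animal 33. Slc4a5, a sodium bicarbonate cotransporter, stood at 8.31, 7.08, 7.16 and 7.05 against 8.14 to 8.44, so that animal 33 was the only malathion animal at the diazinon level (-0.88 ± 0.15, adjusted p = 0.00103). Sstr4, a somatostatin receptor, stood at 6.75, 6.04, 5.23 and 5.16 against 6.50 to 7.09 (-1.02 ± 0.22, adjusted p = 0.0146). Without animal 33 these differences were -1.18 for Slc4a5 and -1.34 for Sstr4.

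Diras2, a Ras-like GTPase, was lower in all 4 malathion animals (7.40, 7.06, 7.41 and 6.68) than in any diazinon animal (7.64 to 8.39), with a difference of -0.87 ± 0.16 (adjusted p = 0.00291). Myo1e, an unconventional myosin, was also lower without overlap (-0.48, adjusted p = 0.016). The amino and fatty acid enzymes Aass (-0.76), Pcca (-0.48) and Adi1 (-0.35) were lower, as were the cyclin gene Ccnd2 (-0.51), the ciliary gene Invs (-0.48) and the mucin gene Muc20 (-0.55). None of these overlapped with diazinon. Ppp1r14c (-0.60), an inhibitor of protein phosphatase, was the only called member of 19 alveolar type II markers, beside 0.281% of all genes tested. Elapor1 (-0.63) completes the 16. For the 13 called genes with further probe sets, 23 of those 25 probe sets had the same direction. The exceptions were in Muc20 (0.15) and Tmem243 (-0.04). Taking the mean over the probe sets of a gene, the differences of Atp10b (0.46), Sstr4 (-0.57) and Diras2 (-0.49) were smaller and passed. In this setting 32 of the 41 called genes passed and 9 did not. Among the 9 were Tmem243 (0.28), 2410022M11Rik (0.48), Muc20 (-0.20), Invs (-0.20), Pcca (-0.27) and Myo1e (-0.32). Of the NRF2 and glutathione genes, 5 were called higher in this setting, against 7 in the main fit.

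The lists of blood, vascular, connective tissue, muscle and liver genes had 0 called members. Neutrophil markers were above 0 in 17 of 17 genes, with a median of 0.54. Their mean was 8.10 in malathion animal 36, 6.64 to 6.97 in the other malathion animals, 6.38 to 6.70 in diazinon and 6.36 to 6.42 in the controls, so animal 36 stood apart. Cardiac muscle genes were above 0 in 27 of 27 genes (median 0.56), with means of 7.08 to 8.08 in malathion and 5.66 to 7.73 in diazinon. Diazinon animal 28 had the lowest cardiac mean. Hepatocyte genes were above 0 in 12 of 13 (median 0.71). The part of these tissues in the called genes was not tested.

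Within the 12 groups of set 2 the malathion mean was the highest or the lowest for 38 of the 41 called genes. The exceptions were Ces1g, Cbr3 and Txnrd1, for which the coumarin group had higher means of 9.15, 10.77 and 10.41 against 7.38, 10.30 and 10.35 in malathion. The diazinon mean was the lowest of the 12 for Txnrd1 and for Miip, and the highest for Ppp1r14c and for Sstr4. The second highest mean of Psrc1 (6.47), Upk3a (6.36), Krtap17-1 (8.46), Cirbp (8.79) and Cldn4 (7.15) was that of the 2,2-bis(bromomethyl)-1,3-propanediol group. These ranks are a description, since the 41 genes were chosen by the malathion and diazinon values that enter them.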

How the data were processed

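Lung RNA of 70 mice was measured on Affymetrix mouse genome arrays. The authors deposited log2 probe set values; the log2 scale was read from the values (2.472 to 14.526, array medians 5.405 to 5.521), and how they were summarized is not stated in the labels. Precision is limited by the number of arrays. Of 45101 probe sets, 64 controls were left out and the 34945 with 1 symbol were used, 34741 of them named through Entrez identifiers. The probe set with the highest mean stood for a gene, and 14593 of 18193 genes above the 30th percentile (4.25) were tested. With limma 3.58.1 in R 4.3.3, lmFit and eBayes estimated 1 mean for each of 18 groups over all arrays, with Benjamini-Hochberg adjustment within each comparison; ± values are SEs of this fit. The data.table package (version 1.17.8), Python 3.11.15, pandas and matplotlib were also used. Data for malathion minus diazinon were simulated with 200 changed genes and 1 spread per gene shared by all groups. On them the fit recovered 59.7% of 1.5-fold, 91% of 2-fold and 98.5% of 4-fold changes. Named genes were the called genes with the largest differences and no overlap (up to 15 a direction), up to 4 called members of each gene list, every called member plus the 4 with the smallest p of the esterase, organophosphate metabolism and cholinergic lists, and up to 5 called genes of each control comparison; the other called genes were named after their values were seen. The members and the 44 gene lists were chosen with earlier results of these data known. Of the lists, 36 had 0 called members between malathion and diazinon. Alternatives covered the filter, probe sets, normalization, arrays in the fit, variance model, array weights, RNA amount, RNA quality and single animals.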

Additional observations from a re-analysis of the deposited data

Results flagged for a closer look

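In the 52 named genes, each group of 4 animals (156 in all) was searched for an animal far from the other 3, and 13 were found, where 7.8 would be flagged by chance at 1 in 20. In malathion, animal 33 stood apart in Slc4a5 (8.31, the others 7.05 to 7.16) and in Upk3a (5.32, the others 7.08 to 7.36), and animal 38 in Myo1e (7.31, the others 7.71 to 7.75). In diazinon, animal 28 stood apart in Pcca (9.05, the others 8.83 to 8.85) and Sncg (6.21, the others 6.55 to 6.61), and animal 25 in Invs (7.11, the others 6.90 to 6.91). Control animal 43 stood high in Atp10b (5.50), Pgd (10.15) and Upk3a (5.42), control animal 44 high in Invs (7.20) and Myo1e (8.33) and low in Ppp1r14c (9.55), and control animal 42 low in Uchl1 (5.07). Where several malathion animals spread widely, as in Gpx2, the gap of animal 33 did not reach the limit.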

How the results depend on the processing

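The 41 called genes kept their direction under the 20 settings tried (36 of the 41 passed the filter at the 50th percentile). Settings that change only the filter, the arrays behind the spread or the variance trend leave the group means as they are. Direction could not change in those settings. All 41 genes were called with no filter and with a variance trend and robust estimation. The count moved to 0 with the 8 arrays alone, to 0 with the 12 arrays that include the feed controls, where 1607 genes had an unadjusted p under 0.05, to 285 with array weights, and to 4 with the 3 animals of each group that had 15 ul of RNA solution. Leaving out single animals gave 6 to 142. With the 12 arrays malathion against control gave 642 genes and diazinon against control 0 (limma; 1484 with an unadjusted p under 0.05). Leaving out single animals gave 77 to 299 genes for malathion against control and 0 to 2 for diazinon against control. The difference in Cyp2c29 between malathion and diazinon, which did not pass, turned to -0.042 without malathion animal 38, -0.05 without malathion animal 39, -0.01 without diazinon animal 24 and -0.082 without diazinon animal 25, and it ranged from -0.082 to 1.36 over single animals left out. The cause was not tested. Fitting every probe set on its own, chosen after seeing the data, called 48 of 31523 probe sets (0.152%), which covered 31 of the 41 genes. No paired analysis was possible because animal numbers name single mice and pair none of these groups. With 4 animals a group the data limit small differences: in simulation 1.5-fold changes were recovered in 59.7% of cases. That simulation gave each gene 1 spread in all groups, whereas the called genes had a median SD of 0.376 in malathion and 0.126 in diazinon. The recovery in these data may therefore differ.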

Other observations

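Glucocorticoid-induced, ER stress and interferon genes had 0 called members between malathion and diazinon, and within each of these groups most members lay on the same side of 0. Of 21 glucocorticoid-induced genes 20 were above 0 (median 0.38, against 0.01 over all genes tested), led by the metallothionein gene Mt2 at 1.31. Their mean was 9.69, 9.94, 10.27 and 10.35 in malathion animals 33, 36, 38 and 39 and 9.30 to 9.94 in diazinon, so animals 38 and 39 stood above the diazinon range. Of 23 genes of the ER stress and amino acid response 21 were below 0 (median -0.18), with means of 9.30 to 9.53 in malathion and 9.53 to 9.72 in diazinon. Interferon genes were below 0 in 27 of 34 (median -0.10), with Gbp6, an interferon-induced GTPase, lowest at -0.93. Their means were 7.56 and 7.47 in malathion animals 33 and 36 and 7.10 and 7.08 in animals 38 and 39, against 7.33 to 7.77 in diazinon. These counts are a description of 8 animals.

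Without malathion animal 33, which was singled out after its values were seen, single members of further lists were called, as a description only. The metallothionein genes Mt1 and Mt2, the p53 target Aen and the cytokine gene Lif were higher. Alas1, the first enzyme of heme synthesis, the disulfide isomerase gene Pdia6, the muscle gene Mybpc2 and the granzymes Gzma and Gzmb were lower. Of the 26 T and natural killer cell markers that include the granzymes, 13 were above 0, with a median of 0.06.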
